A study of Bos taurus with 33 samples.

Results

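The ZNF genes are the part of the bovine zinc finger repertoire whose symbols start with ZNF and a number. Of the 247 ZNF genes listed for oocytes, 161 reached at least 5 CPM (reads on a gene for each 1000000 reads on all genes) in at least 4 of the 16 oocyte pools, and these 161, chosen by their oocyte CPM, are described here. They were part of 10076 genes that met the same limit out of 16279 listed. The 86 other ZNF genes did not meet it. The presence of these genes in oocytes is thus a description with no test. Just outside the limit were ZNF383, ZNF527 and ZNF703, with 4.73, 4.91 and 4.99 CPM in the pool that ranked 4 from the top. Just inside were ZNF165, ZNF605 and ZNF623, at 5.03, 5.45 and 5.45 CPM.

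Zinc finger proteins of this type fold short loops around a zinc ion, and rows of such loops read a DNA or RNA sequence. Many also carry a KRAB domain, which recruits the co-repressor TRIM28 and the histone methyltransferase SETDB1 to silence genes and transposable elements. Oocytes store transcripts of such regulators for use before the embryonic genome is activated, and members of the family protect imprinted methylation in the early embryo. Other ZNF proteins work in splicing, RNA binding and ribosome rescue.

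The pools came from suckled postpartum Hereford-Angus crossbred beef cows, and each library was made from 4 oocytes or from the cumulus cells (CC) around them. All cows were given GnRH on day -9 and prostaglandin F2α on day -2. Small follicles (11.7 mm or less) and large follicles (12.7 mm or more) came from cows without estrus that received a second GnRH injection on day 0, whereas spontaneous follicles (11.7 to 14.0 mm) came from cows in estrus with an endogenous gonadotropin surge and no second injection. Aspiration followed at about 23 h by the protocol and at about 20 h by the sample label. There were 6 small, 6 large and 4 spontaneous oocyte pools, and 6 small, 6 large and 5 spontaneous CC pools. The spontaneous class differed from the other classes in the source of the surge, in estrus and in follicle diameter, and these cannot be told apart. Each pool mixed 4 complexes, so the variation between single complexes was not measured.

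Oocyte libraries held 7664375 to 17934916 reads on genes and CC libraries 1911600 to 5772431, so that 3 reads corresponded to 0.167 to 0.391 CPM in oocytes and to 0.520 to 1.57 CPM in CC, for counting error only. A list of 8 oocyte markers (ZP2, GDF9, BMP15 and others) summed to between 8786 and 12870 CPM in the oocyte pools, while the 3 of them listed for CC reached 6.76 CPM at most. Cumulus markers (7 listed of 8, VCAN and TNFAIP6 among them) summed to 11586 to 32215 CPM in CC and to 449 to 3877 CPM in the oocyte pools. The list of 6 white blood cell markers summed to 124 to 260 CPM in oocytes and 28.3 to 218 CPM in CC. Mitochondrially encoded transcripts took 0.744 to 4.18% of oocyte reads and 11.4 to 38.7% of CC reads.

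The 161 genes together took 9301 to 10530 CPM in the oocyte pools, or 0.930 to 1.05% of all reads on genes. The sum was 9853 ± 419 CPM in small (SD, n = 6), 10000 ± 328 in large (n = 6) and 9569 ± 238 in spontaneous pools (n = 4), and the 3 ranges overlapped. The 5 with the most reads took 29.0% and the top 20 took 56.6% of the reads on the set, while 42 genes averaged under 10 CPM and 22 averaged over 100 CPM. In a single oocyte pool 128 to 143 of the genes reached 5 CPM, and 88 did so in all 16 pools.

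The most reads fell on ZNF215 (ENSBTAG00000003638), a gene that in humans lies in the imprinted Beckwith-Wiedemann region. Its level ran from 667 through a median of 841 to 1155 CPM in small oocyte pools, and from 666 through 783 to 925 CPM in large ones. The spontaneous pools held 789, 803, 696 and 715 CPM. All 16 pools thus lay within a narrow band, with full overlap of the classes. In CC the same gene ran from 0 to 5.10 CPM, with 6 of 17 pools at 0 and 73 reads in all.

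ZNF226 (ENSBTAG00000027431), a KRAB zinc finger gene, came next with 655 ± 110 CPM in oocytes (SD, n = 16) and 75.2 ± 26.3 CPM in CC (n = 17). Its identifier carries the symbol ZNF227 in the CC table, and the 2 names belong to close relatives, so the name is less certain than the values. ZNF638 (ENSBTAG00000009242), a nuclear protein that silences unintegrated retroviral DNA, was alike on both sides, at 569 ± 62.9 CPM in oocytes and 536 ± 88.8 CPM in CC. ZNF106 (ENSBTAG00000004079), an RNA-binding protein, had 421 ± 61.1 and 98.5 ± 23.6 CPM, and ZNF462 (ENSBTAG00000019187), a large chromatin-associated protein, 412 ± 102 and 165 ± 48.8 CPM.

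ZNF638, ZNF106 and ZNF215 were also the steadiest of the genes with a mean of at least 10 CPM. Their SD of log2(CPM + 1) within follicle classifications was 0.16, 0.19 and 0.20 in oocytes. The most variable were ZNF385A, ZNF385B and ZNF148, with SDs of 1.45, 1.33 and 1.29. The spread followed the level in the same way as for other genes. In genes with a mean log2 level of 7 or more the median SD was 0.31 for the 21 ZNF genes and 0.28 for 1920 others, and in genes below 3 it was 1.16 for 37 ZNF genes and 1.21 for 2066 others.

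The cumulus cells around the oocyte did not choose the set. Of the 161 genes, 160 were listed for CC and 135 reached 5 CPM in at least 5 of the 17 CC pools, which is 84.4% of those listed against 82.3% of the other genes present in oocytes. Summed over the set, CC pools held 3162 to 5427 CPM. The sum was 4633 ± 837 CPM in small (SD, n = 6), 4975 ± 304 in large (n = 6) and 4750 ± 328 in spontaneous CC pools (n = 5), with overlapping ranges. Small replicate 3, the shallowest CC library at 1911600 reads, held 3162 CPM, and the 5 other small pools held 4280 to 5427 CPM. ZNF541 (ENSBTAG00000012606), known for its part in meiosis in male germ cells, had 27.6 ± 8.66 CPM in oocytes and no entry for CC.

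Most of the set was more abundant in oocytes than in CC. On the log2(CPM + 1) scale the median difference was 0.82 over 160 genes, with 110 higher in oocytes, or 68.8%, beside a median of 0.61 and 60.7% over 9654 other genes that met the same oocyte limit. The oocyte table and the CC table were scaled separately and the oocyte level had chosen the genes, so these are values with no test. With size factors over both tables the medians were 0.50 and 0.25, and 63.1% of the ZNF genes were higher in oocytes against 54.7% of the others. Every oocyte pool was above every CC pool for 41 genes, 25.6% against 26.7% of the others. Every oocyte pool was below every CC pool for 6, which is 3.75% against 10.6% of the others. In bulk pools fewer cells of a type and less RNA per cell cannot be told apart. The direction was the same in all 3 follicle classifications for 137 genes, of which 104 were higher in oocytes, and the median difference was 0.85 for small, 0.97 for large and 0.73 for spontaneous follicles.

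**Figure D1:**
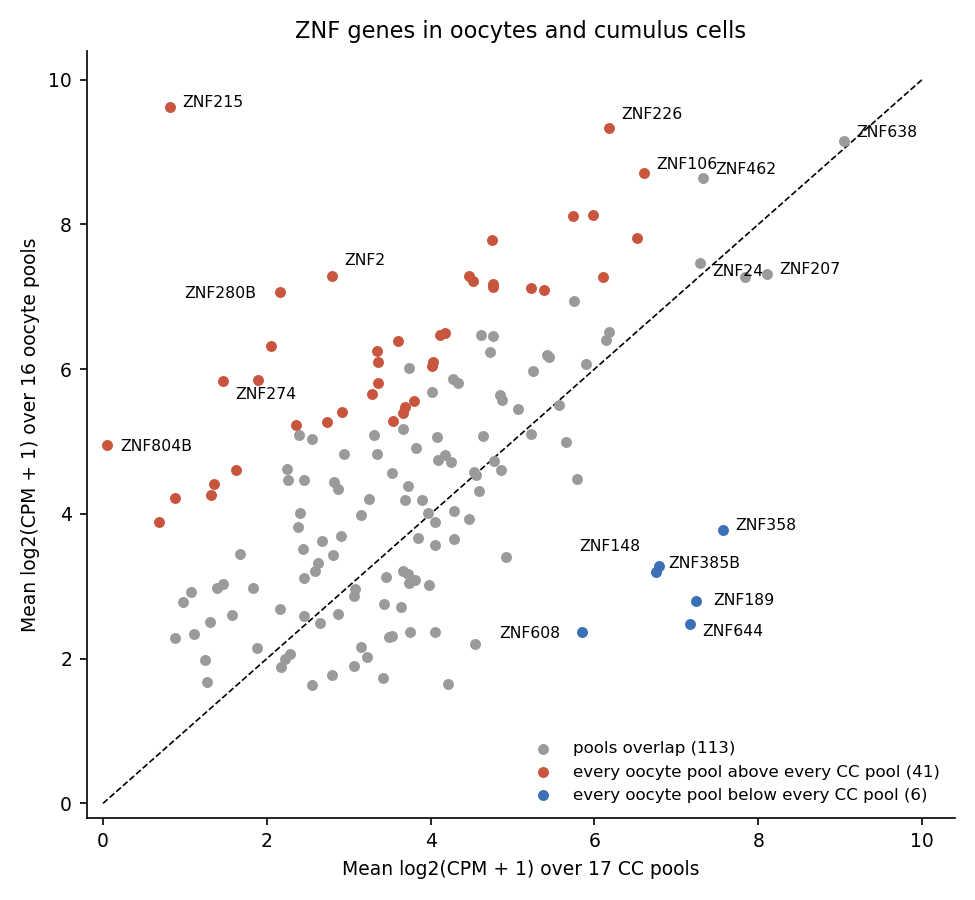
Mean log2(CPM + 1) of 160 ZNF genes over the 17 CC pools (x axis) and the 16 oocyte pools (y axis), where each point is a gene, colors mark whether the pools overlap, and the dashed line marks equal values. The 41 genes with every oocyte pool above every CC pool spread along the upper left, and 6 genes lie far below the line.

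At the oocyte end of this order were ZNF215, ZNF280B, ZNF804B, ZNF2 and ZNF274. ZNF215 differed most, by 8.81 on the log2 scale, with a mean CPM 736 times that of CC. ZNF280B (ENSBTAG00000001005) had 138 ± 34.9 CPM in oocytes and 3.97 ± 2.56 CPM in CC, and ZNF2 (ENSBTAG00000001949) 161 ± 42.3 and 6.32 ± 2.57 CPM. For both genes the lowest oocyte pool, at 61.7 and 90.3 CPM, was far above the highest CC pool, at 10.9 and 12.5 CPM.

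ZNF804B (ENSBTAG00000046430), a relative of the brain-expressed gene ZNF804A, ran from 13.5 to 59.6 CPM over the oocyte pools. It had no read in 15 of the 17 CC pools and 3 reads in the other 2 together. ZNF274 (ENSBTAG00000013353), which brings SETDB1 to the ends of other zinc finger genes, had 59.2 ± 20.0 CPM in oocytes and 2.20 ± 1.81 CPM in CC.

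At the CC end were ZNF644, ZNF189, ZNF358, ZNF385B and ZNF148. ZNF644 (ENSBTAG00000011200), a partner of the H3K9 methyltransferases G9a and GLP, ran from 104 to 190 CPM over the CC pools and from 0.654 to 17.9 CPM over the oocyte pools, a difference of -4.69 on the log2 scale. ZNF189 (ENSBTAG00000015348) had 155 ± 35.6 CPM in CC and 9.41 ± 9.01 CPM in oocytes. ZNF358 (ENSBTAG00000046837) had 204 ± 90.0 and 17.1 ± 11.5 CPM.

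ZNF148 (ENSBTAG00000040031), a regulator that binds GC-rich promoters, had 111 ± 18.1 and 11.9 ± 10.1 CPM. ZNF385B (ENSBTAG00000003120), a relative of the RNA-binding gene ZNF385A, had 114 ± 40.5 and 11.4 ± 9.13 CPM. For ZNF148 the CC pools were tight and the oocyte pools wide, with an SD of log2(CPM + 1) within classifications of 0.22 and 1.29. The CC pools of ZNF358 and ZNF385B varied more, at 204 ± 90.0 and 114 ± 40.5 CPM. In oocytes the median SD of genes outside the set was 1.21 below a mean log2 level of 3 and 0.998 from 3 to 4. Together with ZNF608, the genes named here at the CC end were the 6 whose oocyte pools all lay below the CC pools. Their mean oocyte levels were 4.15 to 10.8% of the CC level. The summed cumulus marker level in oocyte pools was 7.33% of that in CC, with 1.36 to 7.85% for 6 of the markers and 255% for HAS2. The part of residual cumulus RNA in these oocyte values was not tested.

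**Figure D2:**
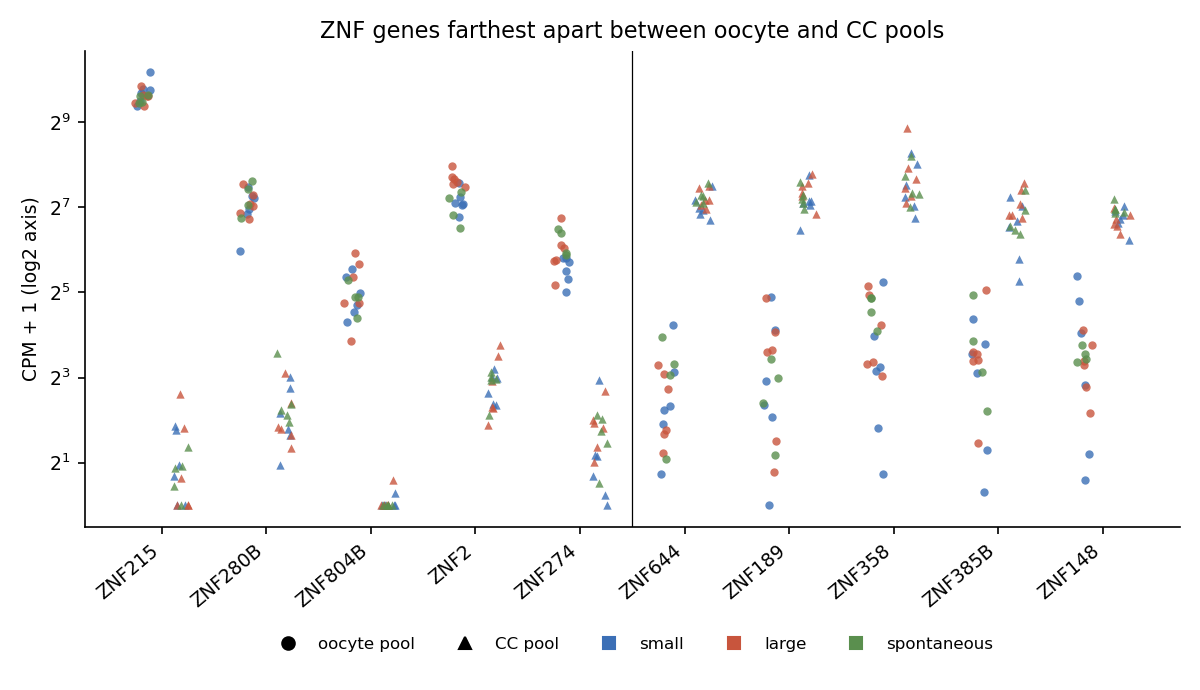
CPM + 1 on a log2 axis in each of the 16 oocyte pools (circles) and 17 CC pools (triangles), colored by follicle classification, for the 5 ZNF genes farthest toward oocytes (left of the line) and the 5 farthest toward CC (right). In each gene the 2 kinds of pool do not overlap, and the oocyte pools of the 5 CC-high genes spread more widely than their CC pools.

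By role, 9 of 10 ZNF genes of RNA binding, splicing and the ribosome were in the set, and 7 of the 9 were higher in oocytes. For this and the next lists, 68.8% of the whole set and 60.7% of other genes that met the limit were higher in oocytes. ZNF346, a binder of double-stranded RNA, had 60.6 ± 23.4 CPM in oocytes and 3.30 ± 2.21 CPM in CC (SD, n = 16 and 17), with no overlap. ZNF622, a ribosome assembly factor, had 61.2 ± 25.6 and 19.5 ± 6.43 CPM, and ZNF830, a splicing-associated protein, 57.8 ± 29.9 and 16.5 ± 6.18 CPM.

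The other direction was taken by ZNF207 (BuGZ), a spindle assembly protein that also acts in splicing, with 161 ± 26.8 CPM in oocytes and 278 ± 43.8 CPM in CC. ZNF326, of a complex that couples splicing to RNA polymerase II, had 23.4 ± 11.4 and 55.0 ± 10.1 CPM. ZNF598, the ubiquitin ligase of collided ribosomes, was low on both sides, at 10.3 ± 5.24 and 5.45 ± 1.90 CPM.

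Of 14 ZNF genes of chromatin complexes and imprint protection 11 were in the set, and 8 of them were higher in oocytes. ZNF592 and ZNF532, which bind the chromatin reader ZMYND8, had 149 ± 38.5 and 140 ± 35.0 CPM in oocytes against 28.3 ± 11.5 and 43.3 ± 15.9 CPM in CC, with no pool overlapping. Their partner ZNF687 ran from 3.85 to 35.4 CPM in oocytes and from 7.38 to 53.4 CPM in CC, with overlap. ZNF445, which guards imprinted regions in the embryo, had 30.7 ± 13.8 and 18.3 ± 6.33 CPM.

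Of 8 listed general regulators 4 were in the set, ZNF24, ZNF76, ZNF131 and ZNF148, and 2 of the 4 were higher in oocytes. ZNF24 had 180 ± 43.4 CPM in oocytes and 159 ± 38.6 CPM in CC. ZNF131, a BTB-domain zinc finger regulator, had 4.06 ± 5.18 CPM in oocytes and 18.7 ± 6.56 CPM in CC.

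The partners that KRAB proteins need were present too. SETDB1 ran from 159 to 312 CPM over the oocyte pools and from 19.4 to 48.8 CPM over the CC pools, with no overlap. TRIM28 ran from 56.9 to 149 CPM and from 38.8 to 85.0 CPM. Of a list of 33 genes of the KRAB co-repressor machinery, 31 met the limit in oocytes and 19 of these were higher there than in CC. That is 61.3%, with a median difference of 0.42. Over all genes outside the set that met the limit it was 60.7%, with a median of 0.61. Among other zinc finger families (ZFP, ZSCAN, ZKSCAN, ZBTB and KLF) 47 of 77 met the limit, with 31 (66.0%) higher in oocytes and a median difference of 0.92.

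Zinc finger genes often stand side by side in the genome, where near-identical copies can share reads. By symbol 159 of the 161 genes were found in the RefSeq gene order of ARS-UCD2.0, and 54 of them stood in 23 runs with at most 2 other genes between neighbors. Within 12 runs every gene was higher in oocytes, within 3 every gene was higher in CC, and 8 runs were mixed. Since 68.8% of the 160 genes were higher in oocytes, many short runs would share a direction by that alone. An excess over that was not tested. In the run of ZNF45, ZNF226, ZNF235 and ZNF180 the oocyte minus CC differences were -0.04, 3.16, 0.95 and -0.96. ZNF214 stood beside ZNF215, yet had 8.98 ± 6.27 CPM in oocytes and 2.25 ± 2.15 CPM in CC, a difference of 1.57 against 8.81. ZNF354A and ZNF354B, which are close copies, had 90.3 ± 21.5 and 149 ± 25.1 CPM in oocytes. The counting of reads that fit several copies is not given in the sources used here, so values of such neighbors are uncertain.

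**Figure D3:**
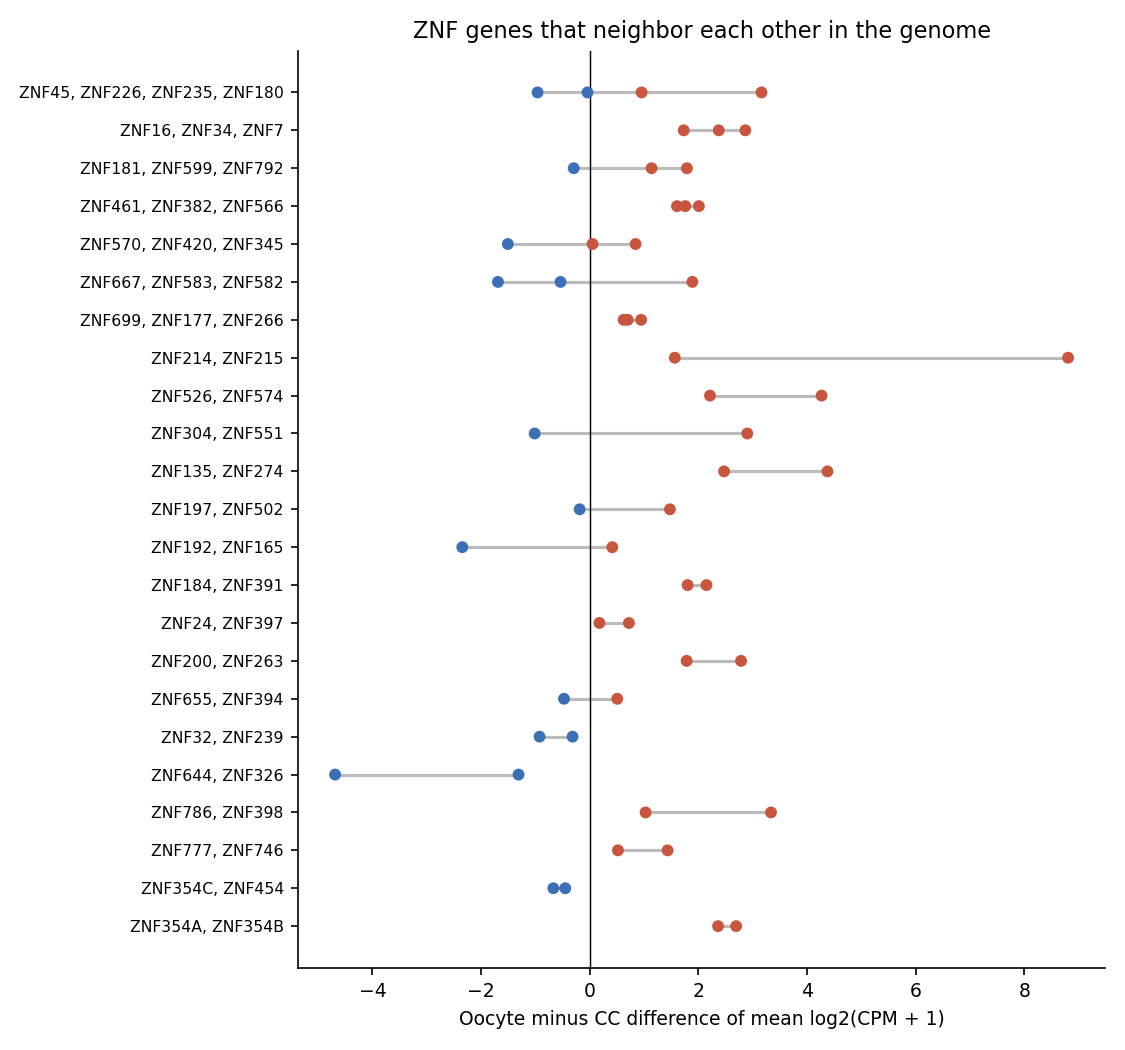
Oocyte minus CC difference of mean log2(CPM + 1) (x axis) for the 54 ZNF genes in 23 runs of neighbors (1 row per run, genes named at the left), where each point is a gene and red marks higher in oocytes. In 12 runs all points lie right of 0, in 3 all lie left, and in 8 they lie on both sides.

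The study asked whether transcript levels differ between follicles of different size and between an induced and a spontaneous surge. Few genes of the ZNF set differed. A gene was called at a nominal limma p of 0.01 or less, two-sided, and in comparisons with small oocyte pools it also had to pass without small replicate 3. By that rule 3 of 161 genes were called between small and large oocytes, against 0.655% of all genes tested, none between small and spontaneous oocytes (0.774% of all genes), and 3 between large and spontaneous oocytes (0.943%). One of the first 3, ZNF131, reached 5 CPM in large and spontaneous pools only, so it had to differ in the direction it did and adds nothing to that count. In CC, none of 135 genes was called between small and large pools (0.813% of all genes), 1 between small and spontaneous pools (2.38%), and none between large and spontaneous pools (1.66%). No gene of the set had a Benjamini-Hochberg adjusted p under 0.05 in limma in any of the 6 comparisons, the smallest being 0.418, so each call rests on the nominal value.

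Between small and large oocytes, ZNF341 and ZNF2 were called, beside ZNF131 with the limit just given, and each was higher in large, where 0.447% of all genes were called. A limma p under 0.05 was found for 8 of the 161 genes, or 4.97%, against 4.11% of all genes. The median difference of the set, large minus small, was 0.08 on the log2 scale against 0.05 for all genes.

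ZNF341 (ENSBTAG00000039313), which switches on the STAT3 gene, ran from 4.25 through a median of 21.1 to 45.6 CPM in small oocyte pools and from 31.9 through 54.4 to 65.4 CPM in large ones. Only small replicate 1 reached into the range of the large pools. The mean was 21.5 ± 14.2 CPM in small and 52.2 ± 14.4 CPM in large (SD, n = 6 each), a difference of 1.48 ± 0.42 on the log2 scale (SE; limma p = 0.00136, adjusted p = 0.997; exact permutation p = 0.00866, two-sided). The spontaneous pools held 29.7, 41.3, 116 and 29.0 CPM. Against small they differed by 1.33 ± 0.54 (limma p = 0.0212, exact permutation p = 0.0857) and were not called. In CC the gene was low, at 5.11 ± 3.26 CPM (n = 17).

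ZNF2, a KRAB zinc finger gene, ran from 108 through 136 to 189 CPM in small and from 179 through 196 to 249 CPM in large oocyte pools. Small replicate 5 alone overlapped with the large pools. The means were 142 ± 26.9 and 202 ± 25.1 CPM (SD, n = 6 each), a difference of 0.52 ± 0.17 on the log2 scale (SE; limma p = 0.00506, adjusted p = 0.997; exact permutation p = 0.00649). The call was lost when small replicate 1, 2, 4 or 6 or large replicate 1, 2, 3 or 5 was left out, with limma p-values between 0.00567 and 0.0174, the lower of which failed in the fit without small replicate 3 as well. It was also lost with median-of-ratios scaling, with all 3 classifications in one fit, with a replicate block and by edgeR, each time in the fit without small replicate 3.

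ZNF131 (ENSBTAG00000015504) ran from 0 through 0.228 to 1.17 CPM in small oocyte pools, with 0 to 14 reads a pool. In large pools it ran from 0.371 through 5.56 to 15.1 CPM. The 2 ranges overlapped only at large replicate 1. The difference was 1.99 ± 0.69 on the log2 scale (SE; limma p = 0.00778, adjusted p = 0.997; exact permutation p = 0.00866). The gene met the 5 CPM limit through 3 large and 2 spontaneous pools and no small one, and the call was lost when small replicate 2, 4, 5 or 6 or large replicate 3, 4, 5 or 6 was left out, with limma p-values between 0.0132 and 0.0296. It was also lost with a pseudocount of 0.1 and with the replicate block. ZNF131 was more abundant in CC, and the summed cumulus markers were 542 to 3877 CPM in small and 449 to 3525 CPM in large oocyte pools. Their part in this result was not tested.

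ZNF398 was the single gene of the set whose small and large oocyte pools did not overlap, or 0.621% of the set against 0.258% of all genes. It had 23.7 ± 6.47 CPM in small and 12.9 ± 1.60 CPM in large pools (SD, n = 6 each), a difference of -0.80 on the log2 scale. The main limma fit did not call it. Limma with no filter on low values (0.622% of all genes) and DESeq2 (1.12%) did.

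Between small and spontaneous oocytes no gene of the set was called by limma, while 11 had a limma p under 0.05, or 6.83% against 4.51% of all genes. By edgeR's quasi-likelihood test on the recovered reads there were likewise 0 (0.556% of all genes) and by DESeq2 there were 2, ZNF777 and ZNF438 (1.20%). The median difference was 0.05 for the set and 0.05 for all genes.

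ZNF777 (ENSBTAG00000002810) came closest to a call. It ran from 5.48 through 11.1 to 15.3 CPM in small oocyte pools, and the spontaneous pools held 28.7, 37.0, 18.1 and 44.9 CPM. Every spontaneous pool was above every small one. The means were 10.8 ± 3.35 (SD, n = 6) and 32.1 ± 11.5 CPM (n = 4), a difference of 1.47 ± 0.53 on the log2 scale (SE; limma p = 0.00913 with all pools and 0.0219 without small replicate 3, adjusted p = 0.987; exact permutation p = 0.00952). The latter is the smallest that the 210 arrangements of these pools allow. The large pools ran from 1.01 to 21.9 CPM. ZNF274 was the other gene without overlap, at 46.0 ± 9.60 CPM in small and 72.5 ± 16.1 CPM in spontaneous pools, and was not called. These 2 are 1.24% of the set, and 0.903% of all genes had no overlap.

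Between large and spontaneous oocytes, ZNF829, ZNF2 and ZNF391 were called and each was lower in spontaneous, as were 0.546% of all genes. This comparison shares the large pools with that of small and large. A limma p under 0.05 was found for 12 genes, or 7.45% against 4.87% of all genes, and the median difference, spontaneous minus large, was -0.02 against 0.01.

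ZNF829 (ENSBTAG00000040108) ran from 31.5 through 38.1 to 83.8 CPM in large oocyte pools, and the spontaneous pools held 18.6, 5.87, 27.5 and 13.5 CPM. No pool overlapped. The means were 50.0 ± 23.3 (SD, n = 6) and 16.4 ± 9.10 CPM (n = 4), a difference of -1.62 ± 0.44 on the log2 scale (SE; limma p = 0.00107, adjusted p = 0.847; exact permutation p = 0.00952, the smallest possible). Small pools lay between, at 27.4 ± 13.1 CPM. The call held without any single pool.

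ZNF2 in the spontaneous pools was at 147, 112, 163 and 90.3 CPM, all below the lowest large pool at 179 CPM. The difference was -0.68 ± 0.20 on the log2 scale (SE; limma p = 0.00212, adjusted p = 0.925; exact permutation p = 0.00952, the smallest possible). It was lost without spontaneous replicate 4, where the difference was -0.53, and with the replicate block, where it was -0.63.

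ZNF391 (ENSBTAG00000009152) ran from 3.80 through 9.92 to 38.8 CPM in large oocyte pools and was at 1.33, 5.94, 1.59 and 0.725 CPM in the spontaneous ones. Spontaneous replicate 2 lay within the range of the large pools and was the only spontaneous pool to reach 5 CPM. The filter may thus have favored the class where ZNF391 was high, which limits its p-values. The difference was -1.97 ± 0.71 on the log2 scale (SE; limma p = 0.00963, adjusted p = 0.968; exact permutation p = 0.0286). It was lost when large replicate 1, 2, 5 or 6 or spontaneous replicate 1, 3 or 4 was left out, with limma p-values between 0.0124 and 0.0359. It was also lost with no filter on low values, with a mean of at least 1 CPM as the filter, with the replicate block and by edgeR. ZNF792, at 9.30 ± 3.64 CPM in large and 2.90 ± 0.847 CPM in spontaneous pools, was the third gene without overlap, beside ZNF829 and ZNF2. The main limma fit did not call ZNF792. The 3 genes are 1.86% of the set, and 0.913% of all genes had no overlap. No spontaneous pool of ZNF792 reached 5 CPM. The filter may thus have favored the class where it was high, which limits its place in that count.

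**Figure D4:**
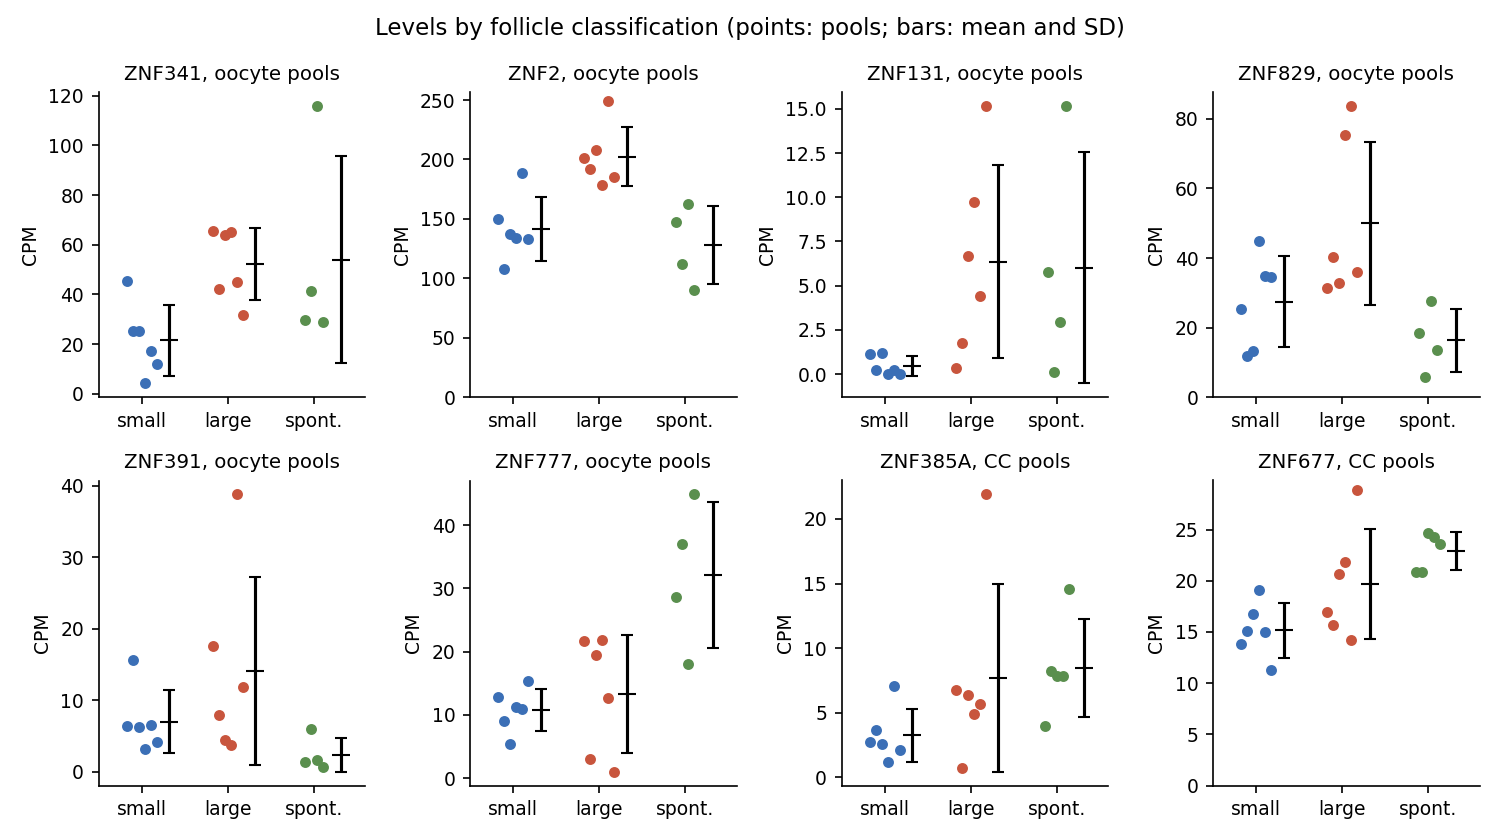
CPM of 6 ZNF genes in oocyte pools and 2 in CC pools (y axis from 0 upward, a scale of its own in each panel) by follicle classification, where points are pools and bars give mean and SD. ZNF2 is highest in the large oocyte pools, ZNF829 separates large from spontaneous pools, and ZNF131 stays at 1.17 CPM or less in the small pools.

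In CC the classes differed little in the set. Between small and large CC pools limma called none of the 135 genes and gave 5 a p under 0.05, or 3.70% against 4.00% of all genes. edgeR called 0 (0.649% of all genes) and DESeq2 called 1, ZNF623 (1.15%). The smallest limma p-values belonged to ZNF239, at 8.47 ± 4.85 CPM in small and 3.41 ± 3.21 CPM in large (SD, n = 6 each), and to ZNF623, at 6.84 ± 4.51 and 2.14 ± 1.78 CPM. Their differences were -1.22 ± 0.48 (SE; limma p = 0.0199, exact permutation p = 0.0628) and -1.27 ± 0.51 (limma p = 0.0227, exact permutation p = 0.0390) on the log2 scale. ZNF623 met the CC limit with no pool to spare, and stayed above it in 8 of the 12 fits without 1 pool. The filter may thus have favored the class where ZNF623 was high, which limits its p-values and its DESeq2 call. No gene of the set was without overlap, against 0.247% of all genes.

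Between small and spontaneous CC pools the set lay lower than most genes. The difference, spontaneous minus small, was above 0 for 71.9% of all genes tested and for 52.6% of the ZNF genes, with medians of 0.16 and 0.02 on the log2 scale. Without small replicate 3, the shallowest CC library, the share of the ZNF genes was 41.5% with a median of -0.06, beside 0.07 for all genes. Without small replicate 4 the share was 64.2% with a median of 0.09, beside 0.195 for all genes. Between large and spontaneous CC pools these shares were 65.6% and 50.4%, with medians of 0.11 and 0.02. The 2 comparisons share the spontaneous pools. Scaling by median-of-ratios size factors shifted the medians of all genes to 0.01 and 0.01 and turned those of the set to -0.12 and -0.08, with 35.6% and 41.5% of the ZNF genes above 0 against 52.0% and 51.7% of all genes. Only the position of the set below other genes was therefore kept in both scalings, and its own direction was not. Small CC pools were also lowest in summed cumulus markers, with a median of 17136 CPM against 25001 in large and 21398 in spontaneous pools. Most of that sum was VCAN, with a mean of 16662 of 21360 CPM over the CC pools. The paper itself reports VCAN as higher in large than in small CC, so the sum does not measure cumulus content alone. The part of the marker level in the values of the set was not tested.

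The single call was ZNF385A (ENSBTAG00000015604), an RNA-binding partner of p53, and it was higher in spontaneous pools, as were 2.28% of all genes. A limma p under 0.05 was found for 4 genes of the set, or 2.96% against 8.55% of all genes. ZNF385A ran from 1.22 through 2.69 to 7.06 CPM in small CC pools, and the spontaneous pools held 3.97, 8.19, 7.81, 7.80 and 14.6 CPM. Small replicate 5 lay within the spontaneous range and was the only small pool to reach 5 CPM. The filter may thus have favored the class where ZNF385A was high, which limits its p-values. The means were 3.24 ± 2.04 (SD, n = 6) and 8.46 ± 3.81 CPM (n = 5), a difference of 1.19 ± 0.40 on the log2 scale (SE; limma p = 0.00876, adjusted p = 0.418; exact permutation p = 0.00866). The call was lost when small replicate 1, 2, 3, 4 or 6 or spontaneous replicate 2, 3, 4 or 5 was left out, with limma p-values between 0.0108 and 0.0366. It was not made with median-of-ratios scaling, by edgeR or by DESeq2, where the differences were 1.05, 1.19 and 1.20, nor with a pseudocount of 0.1, with all 3 classifications in one fit or with the replicate block.

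ZNF677 (ENSBTAG00000038674), a KRAB zinc finger gene, separated the classes without being called. It ran from 11.3 through 15.0 to 19.1 CPM in small CC pools, and the spontaneous pools held 20.9, 20.9, 24.7, 24.3 and 23.6 CPM, so that none overlapped. The difference was 0.58 ± 0.22 on the log2 scale (SE; limma p = 0.0170, adjusted p = 0.464), and the exact permutation p was 0.00433, the smallest that 462 arrangements allow. It was the only such gene of the 135, or 0.741% against 1.16% of all genes.

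Between large and spontaneous CC pools limma called none of the 135 genes and gave 5 a p under 0.05, or 3.70% against 7.07% of all genes, while edgeR called 2, ZNF454 and ZNF513 (1.31% of all genes), and DESeq2 called these and ZNF551 (2.05%). The smallest limma p-values belonged to ZNF513, at 16.7 ± 5.28 CPM in large (SD, n = 6) and 9.52 ± 1.97 CPM in spontaneous pools (n = 5), and to ZNF454, at 14.4 ± 8.35 and 6.43 ± 1.40 CPM. Their differences were -0.72 ± 0.27 (SE; limma p = 0.0181, exact permutation p = 0.0130) and -0.91 ± 0.35 (limma p = 0.0198, exact permutation p = 0.0216). No gene of the set was without overlap, against 0.865% of all genes.

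**Figure D5:**
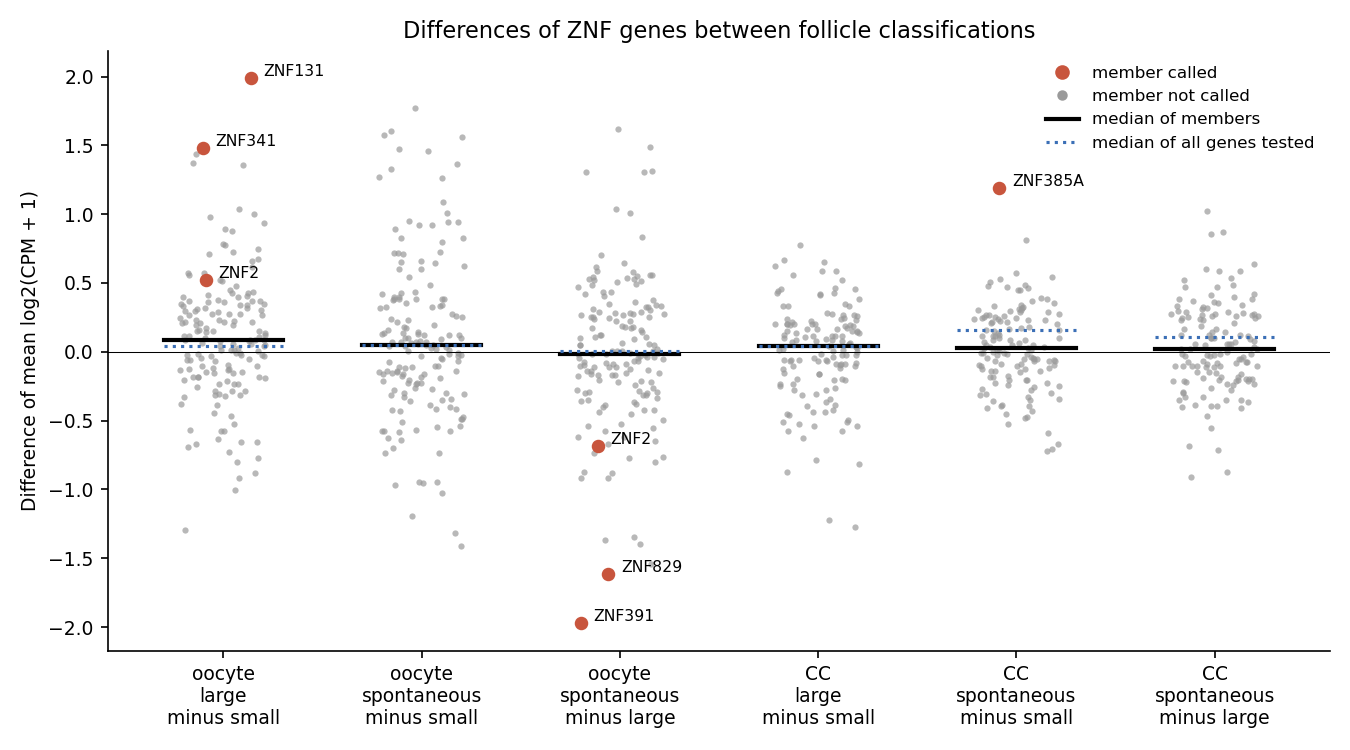
Difference of mean log2(CPM + 1) (y axis) of each ZNF gene in the 3 oocyte comparisons (161 genes) and the 3 CC comparisons (135 genes), where points are genes, red points are called, black bars are medians of the ZNF genes and dotted blue bars medians of all genes tested. The oocyte differences spread more widely than those in CC, and in both CC comparisons with spontaneous pools the median of all genes lies above that of the ZNF genes.

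Within the role lists the calls were few. Of the 4 general regulators limma called ZNF131 alone, in the comparison where its filter fixed the direction (0.655% of all genes). Of the 9 genes of RNA binding, splicing and the ribosome limma called ZNF385A between small and spontaneous CC (2.38%). Of the 11 genes of chromatin complexes, limma called 0 over the 6 comparisons, with 3 unadjusted p-values under 0.05, and edgeR called 0. DESeq2 called ZNF335 between small and spontaneous CC (2.23% of all genes). Of the 31 genes of the KRAB co-repressor machinery that met the limit, limma called 0 over the 6 comparisons, with 9 unadjusted p-values under 0.05. edgeR called 0 of these genes. DESeq2 called ATF7IP, a SETDB1 partner, between small and spontaneous oocytes (1.20% of all genes). Among all genes tested the share of unadjusted p-values under 0.05 was 4.00 to 8.55% in the 6 comparisons. The share called was 0.655 to 2.38% by limma and 0.526 to 1.32% by edgeR. SETDB1 differed by 0.14 ± 0.17 (SE) between small and large oocytes and by 0.23 ± 0.21 between small and spontaneous ones (limma adjusted p = 0.997 and 0.987). TRIM28 differed by -0.18 ± 0.25 and -0.08 ± 0.30 (limma adjusted p = 0.997 and 0.996). Of the 47 genes of other zinc finger families, ZBTB9 and ZBTB6 were called between small and large oocytes, 1 in each direction (0.655% of all genes), and ZBTB9 again between large and spontaneous ones (0.943%). Of the 56 genes of these families tested in CC, limma called 0 between small and large (0.813%), 0 between small and spontaneous (2.38%) and 0 between large and spontaneous pools (1.66%).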

How the data were processed

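Libraries were amplified from total RNA (Ovation RNA-Seq System V2) and read as single ends. Per the study's methods the authors used fqtrim for trimming, Hisat2 and the UMD3.1 genome for alignment, FeatureCounts and the Ensembl annotation for counting, and tested pairs of classifications with edgeR and DESeq2. The deposited values are CPM made by the authors, 1 table for 16 oocyte pools and 1 for 17 CC pools. Every CPM value gave a whole number of reads within 0.05 reads (100% in each pool), so reads were recovered for count tests. Whether strand was used, and how reads that fit several copies were handled, is not given in the sources used here.

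Genes that reached 5 CPM in 4 or more oocyte pools (10076) or in 5 or more CC pools (9712) were tested in limma 3.58.1 (trend, two-sided) on log2(CPM + 1), so differences of low genes are understated. Calls used a nominal p of 0.01 or less, with Benjamini-Hochberg adjusted p-values over all genes tested. Named pairs also had an exact permutation test of mean CPM. Alternatives included edgeR 4.0.16 and DESeq2 1.42.0 on recovered reads, other pseudocounts, filters and scalings, a replicate block, and leaving out each pool. The limma and edgeR fits were tested on simulated data. The ZNF genes and all lists were chosen with earlier results of these data known. Genes named are those called (or the 2 with the smallest p), the 5 with the most oocyte reads, the 5 at each end of the oocyte minus CC order, the 3 steadiest and 3 most variable, the 3 on each side of the limit, and members of the role lists. ZNF398, ZNF274, ZNF792, ZNF608, ZNF541, ZNF438, ZNF551, ZBTB9, ZBTB6, ATF7IP and HAS2, and the genes named with their neighbors, were named after their values were seen.

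Genes were matched between tables by Ensembl identifier, because 22 carried no symbol or another one in the CC table. That table gives another symbol for 4, ZNF135, ZNF192, ZNF226 and ZNF323. No gene lengths were used, so values set side by side for different genes compare reads and not numbers of transcripts. Gene order came from RefSeq ARS-UCD2.0 by symbol, with no coordinates taken from it. Protein and DNA sequences of the genes, and the planned count of finger and KRAB motifs, were not analysed here. The labels do not say which cows entered a pool, so p-values measure only the spread between pools, part of which may be technical.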

Additional observations from a re-analysis of the deposited data

Results flagged for a closer look

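Of 42 groups of 4 to 6 pools checked for the named genes of the comparisons, 6 held a pool set apart by more than Dixon's 95% critical value. Chance gives about 1 in 20 for normally distributed values. The check used CPM, which can be skewed in low genes, so that rate may not apply. ZNF341 stood at 116 CPM in oocyte spontaneous replicate 3, with the next pool at 41.3 CPM. ZNF391 stood at 15.6 CPM in oocyte small replicate 2, with the next at 6.54, and at 5.94 CPM in oocyte spontaneous replicate 2, with the next at 1.59. In CC, ZNF239 stood at 9.56 CPM in large replicate 4 against 3.31 in the next pool, and at 10.3 CPM in spontaneous replicate 2 against 5.26. ZNF385A stood at 21.9 CPM in CC large replicate 6, with the next pool at 6.72 CPM.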

How the results depend on the processing

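For the 14 pairs of a gene and a comparison that were called or came closest to a call, no alternative changed the direction. Of 262 such values 197 kept their side of the threshold, 50 lost the call and 15 gained it. Between small and large oocytes, 3 genes were called, 1 with the replicate block (0.496% of all genes) and 5 by DESeq2 (1.12%), ZNF398 among them. There were 2 with a pseudocount of 0.1 (0.546%), with median-of-ratios scaling (0.695%), with all 3 classifications in one fit (0.655%) and by edgeR (0.526%). With no filter on low values there were 4, again with ZNF398 (0.622%). Between large and spontaneous oocytes 3 were called (0.943%) and 4 by DESeq2 (1.80%), among them ZNF792 with the filter limit given above. With a mean of at least 1 CPM there were 2 (0.945%), and by edgeR likewise 2 (0.903%). Between small and spontaneous oocytes 0 were called (0.774%) and 2 by DESeq2 (1.20%). With no filter on low values there was 1, ZNF777 (0.603%), and with all 3 classifications in one fit 1, ZNF341 (0.992%). Between small and large CC 0 were called (0.813%), 1 in the joint fit (ZNF239, 1.41%) and 1 by DESeq2 (ZNF623, 1.15%). Between small and spontaneous CC 1 was called (2.38%), 3 with no filter (1.98%) and 3 by DESeq2 (2.23%). None was called with a pseudocount of 0.1 (2.15%), median-of-ratios scaling (1.30%), the joint fit (1.90%) or edgeR (1.32%). Between large and spontaneous CC 0 were called (1.66%), 1 with median-of-ratios scaling (1.20%), 2 by edgeR (1.31%) and 3 by DESeq2 (2.05%). Apart from fewer samples or other tested genes the cause was not tested.

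Leaving out single pools gave 1 to 3 calls between small and large oocytes (1 without small replicate 2 or 6 or large replicate 3 or 5), 0 to 2 between small and spontaneous oocytes (1 without small replicate 1 or 3 or spontaneous replicate 2, 2 without spontaneous replicate 4) and 2 to 5 between large and spontaneous oocytes (5 without large replicate 4). In CC it gave 0 to 1 between small and large (1 without small replicate 2 or 3 or large replicate 4), 0 to 1 between small and spontaneous (0 without small replicates 1 to 4 or spontaneous replicates 3 to 5) and 0 to 2 between large and spontaneous (1 without large replicate 2, 2 without large replicate 3). In the same order, 0.470 to 0.935%, 0.493 to 1.31% and 0.755 to 1.45% of all genes were called in oocytes. In CC the shares were 0.538 to 1.17%, 1.46 to 3.24% and 0.912 to 2.41%.

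The ZNF set held 161 genes, 158 to 161 without single pools and 88 if 5 CPM was asked of every pool. For CC 135 became 132 to 135 and 77. The median oocyte minus CC difference of 0.82 was 0.58 with mitochondrially encoded genes left out and 0.50 with size factors over both tables, where other genes had 0.34 and 0.25, and 0.78 to 0.89 without single pools. Replicate numbers did not pair the pools: deviations of same-numbered pools correlated at -0.19 to 0.22, and in no comparison were all above 0.1. With the replicate block ZNF341 was called between small and large oocytes, ZNF829 and ZNF502 between large and spontaneous oocytes, where ZNF2 and ZNF391 were lost, and ZNF382 in place of ZNF385A between small and spontaneous CC, making 1, 0 and 2 calls in oocytes and 0, 1 and 0 in CC. Of all genes tested, 0.496, 0.417 and 0.665% were then called in oocytes and 0.988, 2.68 and 1.55% in CC. Shallow CC libraries limit genes near 1 CPM, where a few reads decide the level.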
